A study of Mus musculus with 64 samples.

Results

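The 10 genes described here encode proteins of the insulin and insulin-like growth factor (IGF) receptor pathway: the ligand Igf1, the receptors Insr and Igf1r, the adaptors Irs1 and Irs2, the phosphoinositide 3-kinase (PI3K) subunit Pik3r1, the kinases Akt1 and Akt2, and the receptor-binding brakes Grb10 and Grb14. They were chosen by name, with earlier results of these data known, and they are 10 of 48795 gene rows in the count table. All 10 had a count in every library and passed the filter on low counts, which left 16417 genes for testing. RNA was sequenced from the biventricular heart of male C57BL/6 mice, either with a cardiomyocyte-specific knockout of E4BP4 (CEK) or as littermate controls (CON). E4BP4 is the protein of the gene Nfil3, a repressor that binds D-box elements and belongs to the output of the circadian clock. Hearts were taken at 8 zeitgeber times (ZT, by convention hours after lights on) from ZT0 to ZT21, every 3 h, with 4 biological replicates per genotype and time, 64 libraries in all. The sources used here do not give the promoter that drove the Cre recombinase, the age of the mice, the light schedule, or whether the controls carried floxed alleles or Cre.

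Insulin and IGF-1 bind related receptor tyrosine kinases, which phosphorylate the IRS adaptors. The IRS proteins recruit PI3K, whose regulatory subunit is Pik3r1, and the lipid it makes activates Akt kinases. In the heart this pathway drives glucose uptake and physiological growth, and Grb10 and Grb14 bind the activated receptors and dampen their signal.

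The total count on genes per library ran from 7.71 to 45.6 M (median 26.7 M). The targeted gene Nfil3 ranged from 4.90 to 31.8 CPM (counts scaled to a common library size) over the 32 CON hearts and from 0.506 to 4.75 CPM over the 32 CEK hearts, and every CEK heart was below the lowest CON heart. Its log2 fold change, CEK against CON over all times, was -3.00 ± 0.067 (SE; edgeR adjusted p = 3.35e-39). Counts do not come from cardiomyocytes alone, since the whole ventricle was sequenced. The cardiomyocyte marker score was the mean log2 CPM of 12 markers. It was 12.3 ± 0.114 (SD) over CON hearts and 12.2 ± 0.117 over CEK hearts. A marker passed at an edgeR adjusted p at or under 0.05 for the average genotype difference. Over all tested genes 5.3% passed as lower and 6.69% as higher in CEK. Of the cardiomyocyte markers 3 passed as lower and 1 as higher, and 4 had a positive log2 fold change. The macrophage and myeloid marker score was 3.85 ± 0.242 in CON (3.42 to 4.55) and 4.16 ± 0.245 in CEK hearts (3.71 to 4.94). Of those 12 markers 11 passed as higher in CEK, and 12 had a positive log2 fold change. Of 11 atrial markers 7 passed as lower in CEK, and 0 had a positive log2 fold change. Of 12 fibroblast markers 2 passed as higher, and 9 had a positive log2 fold change. The fibroblast score was 6.00 ± 0.147 in CON and 6.11 ± 0.195 in CEK hearts. Of 12 endothelial markers 2 passed as lower, and 0 had a positive log2 fold change. The endothelial score was 6.73 ± 0.1002 in CON and 6.63 ± 0.104 in CEK hearts, and the median log2 fold change was -0.10. The macrophage and atrial scores were used as covariates, and what part the other scores had in the results was not tested. The macrophage score itself differed between genotypes, and with it as a covariate the errors of the genotype differences of Grb14 and Igf1 were wider. Where a call ended in that fit, the wider error and the score cannot be told apart. On the first principal component 3 libraries stood apart, replicate 4 of CEK at ZT0, replicate 1 of CEK at ZT18 and replicate 3 of CON at ZT18. The first had the highest share of reads without a unique alignment, 37.9% (median 33.3%). The second had the lowest share of mitochondrial counts, 10.5% (median 25.5%), and the last the lowest total count, 7.71 M. What part library quality had in their values was not tested. In these 3 libraries, in that order, Igf1r was high, at 56.0, 51.1 and 43.2 CPM, and Irs1 was low, at 0.328, 0.922 and 0.747 CPM.

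A difference passed, or was called, at an adjusted p at or under 0.05 over all tested genes. Of the 10 genes, Grb14 and Akt2 were called lower in CEK hearts over the day. In edgeR 0 were called higher (1 at an unadjusted p under 0.05, and 0 in DESeq2). Over all tested genes 5.3% were called lower and 6.69% were called higher, 12% in either direction. Grb14 RNA in CEK hearts was 79.3% of the CON level (95% interval 76.2 to 82.6%), and Akt2 was 92.3% (88.5 to 96.2%). The median log2 fold change of the 10 genes was -0.04, beside -0.0007 for all tested genes. Among the called daily rhythms of the 10 genes the largest was that of Pik3r1, which rose and fell 1.71-fold over the day in CON and 1.61-fold in CEK hearts. A difference in time course between genotypes was called for 0 of the 10 genes in edgeR (0 at an unadjusted p under 0.05, and 0 in DESeq2). Of all 16417 tested genes 1 was called (0.00609%), so 0 of 10 does not set these genes apart. The called gene was in a reference list of 4 clock genes, which includes the targeted gene Nfil3. In bulk tissue, fewer cells of a type and less RNA per cell cannot be told apart.

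**Figure D1:**
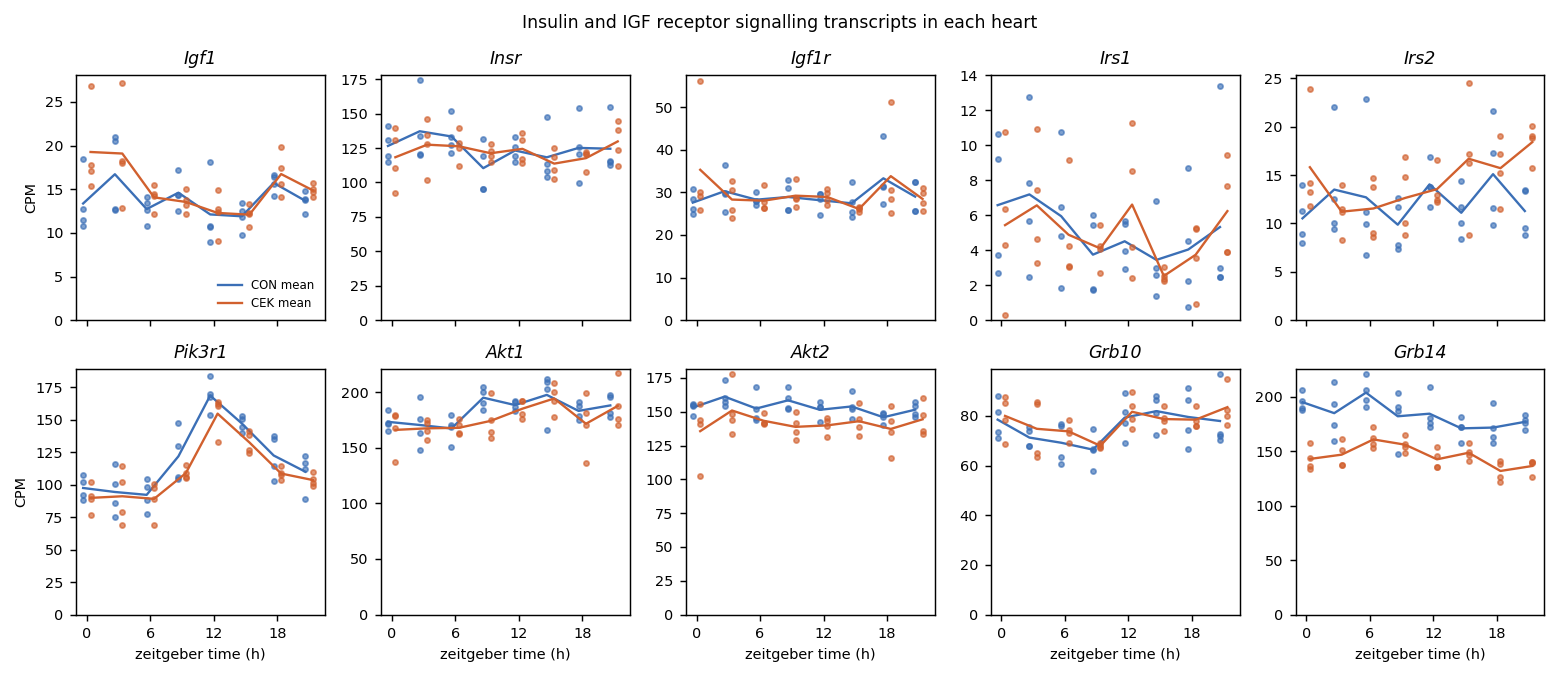
Scaled counts (CPM, y axis from 0, own scale per gene) of the 10 genes against zeitgeber time in hours, with 1 point per heart (4 per genotype and time) and lines through the means, CON in blue and CEK in orange. Grb14 lay lower in CEK at every time, and Pik3r1 peaked at ZT12 in both genotypes.

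The windows before the start sites of Grb14, the gene with the largest genotype difference, and Pik3r1, the gene with the largest called rhythm, were read from the RefSeq promoter table (GRCm38.p6, 250 bases upstream of each start, 5′ to 3′ on the gene's strand). The Grb14 window is chr2:65022767-65023016 on the minus strand. The Pik3r1 windows are chr13:101692631-101692880 and chr13:101768218-101768467, both on the minus strand, for 2 start sites of the gene. No capitals appear in them, since none of the motifs searched was found.
Grb14: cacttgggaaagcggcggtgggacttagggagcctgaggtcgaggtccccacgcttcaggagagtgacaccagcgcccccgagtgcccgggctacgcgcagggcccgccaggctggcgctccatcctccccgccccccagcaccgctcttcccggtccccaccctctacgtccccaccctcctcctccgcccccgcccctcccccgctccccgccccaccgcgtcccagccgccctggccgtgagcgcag
Pik3r1, downstream start: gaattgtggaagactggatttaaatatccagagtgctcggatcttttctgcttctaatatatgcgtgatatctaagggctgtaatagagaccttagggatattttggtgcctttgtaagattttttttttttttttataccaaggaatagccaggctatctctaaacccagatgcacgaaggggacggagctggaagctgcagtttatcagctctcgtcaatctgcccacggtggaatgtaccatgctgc
Pik3r1, upstream start: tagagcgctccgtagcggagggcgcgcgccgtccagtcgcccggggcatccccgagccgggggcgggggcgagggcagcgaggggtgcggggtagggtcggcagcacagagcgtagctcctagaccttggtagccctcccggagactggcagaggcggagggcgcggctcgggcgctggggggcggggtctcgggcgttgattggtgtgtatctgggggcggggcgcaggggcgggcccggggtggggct

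The motifs searched, on both strands, were the D-box TTANGTAA, to which E4BP4 binds, the E-box CACGTG of the clock activators and the FoxO element GTAAACA. The table held 15 windows for 9 of the 10 genes. The D-box letters were in 0 of these 15 windows, and in 2.06% of all 32851 windows in the table. The E-box was in the single windows of Irs1, at position -115 from the start, and Irs2, at position -44, beside 6.02% of all windows. The FoxO element was in 1 window of Akt1, at position -161, beside 3.17% of all windows. A match describes these letters only, and the absence of one covers only these windows.
Irs1, chr1:82291440-82291689, minus strand, E-box in capitals: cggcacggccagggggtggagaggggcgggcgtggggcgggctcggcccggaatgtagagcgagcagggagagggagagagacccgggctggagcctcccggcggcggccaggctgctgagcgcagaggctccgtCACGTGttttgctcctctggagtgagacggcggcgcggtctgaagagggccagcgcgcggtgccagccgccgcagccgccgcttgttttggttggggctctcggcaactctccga
Irs2, chr8:11008930-11009179, minus strand, E-box in capitals: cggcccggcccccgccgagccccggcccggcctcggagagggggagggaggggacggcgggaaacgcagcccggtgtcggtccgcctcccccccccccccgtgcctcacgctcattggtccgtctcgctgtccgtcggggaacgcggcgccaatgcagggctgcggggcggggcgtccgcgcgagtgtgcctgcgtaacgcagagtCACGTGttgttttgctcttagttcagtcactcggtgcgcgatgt

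Levels between genes were compared as CPM per kilobase of exon, as means over the 32 CON hearts. Akt1 was highest at 44.6 ± 3.84 (SD) CPM per kilobase, followed by Grb14 at 25.6 ± 2.47 and Akt2 at 21.5 ± 1.09. Pik3r1 followed at 11.8 ± 2.84, Insr at 9.08 ± 1.30 and Grb10 at 8.31 ± 1.03. The lowest were Irs2 at 1.94 ± 0.653, Igf1r at 1.73 ± 0.233, Igf1 at 1.40 ± 0.296 and Irs1 at 0.558 ± 0.372. Pik3r1 and Insr, Insr and Grb10, Irs2 and Igf1r, and Igf1r and Igf1 were neighbours whose means differed by less than the sum of their SDs. In CEK hearts the levels of Grb14 (20.3 ± 1.66 CPM per kilobase) and Akt2 (19.9 ± 1.84) also lay within each other's SD.

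The ligand gene Igf1, whose product acts on the heart from the circulation and from cells within it, had 8.97, 13.4 and 20.96 CPM as its lowest, median and highest value over CON hearts and 9.07, 14.6 and 27.2 CPM over CEK hearts. The ranges overlapped over most of their length. The average log2 fold change was 0.13 ± 0.066 (edgeR adjusted p = 0.244), and the means were higher in CEK at 7 of 8 times. At ZT0 the 4 CEK hearts had 15.4, 17.1, 17.8 and 26.8 CPM and the 4 CON hearts 10.8, 11.5, 12.8 and 18.5 CPM. The groups overlapped at ZT0 through the single highest CON heart, and the log2 fold change there was 0.52 ± 0.18 (edgeR adjusted p = 0.165). With the macrophage score as a covariate the average difference of Igf1 was -0.04 ± 0.082 (edgeR adjusted p = 0.903). Igf1 overlaps the antisense gene Igf1os, which had a median of 2.5 counts beside 386 for Igf1, and the sources used here do not say whether the counting used strand.

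The insulin receptor gene Insr had 94.9, 121 and 174 CPM as lowest, median and highest value over CON hearts, and 92.1, 122 and 146 CPM over CEK hearts. The CEK range lay almost wholly within the CON range. Its average log2 fold change was -0.03 ± 0.046 (edgeR adjusted p = 0.787). The IGF-1 receptor gene Igf1r ran from 24.2 through 28.5 to 43.2 CPM over CON hearts and from 23.97 through 28.2 to 56.0 CPM over CEK hearts. The highest heart of each genotype was one of the 3 libraries that stood apart. Its average log2 fold change was 0.03 ± 0.057 (edgeR adjusted p = 0.828), and without those 3 libraries it was -0.03 ± 0.037.

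Irs1, an adaptor that is phosphorylated by both receptors, had the lowest counts of the 10 genes, from 5 to 517 reads per library. It ran from 0.747 through 4.24 to 13.4 CPM over CON hearts and from 0.328 through 4.22 to 11.3 CPM over CEK hearts. The median coefficient of variation within the 16 groups was 59.8% for Irs1 and 5.35% for Akt2, the steadiest of the 10. The average log2 fold change of Irs1 was -0.06 ± 0.22 (edgeR adjusted p = 0.920), with an interval of 70.8 to 130.7% of the CON level, so that a difference of the size seen for Grb14 was not detectable for Irs1 here.

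Irs2, the second adaptor, ran from 6.78 through 11.7 to 22.9 CPM over CON hearts and from 8.28 through 14.1 to 24.5 CPM over CEK hearts. Most hearts of the genotypes overlapped. The average log2 fold change was 0.23 ± 0.10 (edgeR adjusted p = 0.157). The CEK mean was higher at 5 of 8 times and lower at 3, where it was 83.1% of the CON mean at ZT3, 90.9% at ZT6 and 96.5% at ZT12. At ZT21 the CEK hearts had 15.7, 18.8, 18.99 and 20.1 CPM and the CON hearts 8.82, 9.53, 13.4 and 13.4 CPM. The groups did not overlap at that time, which was so for 3.98% of all gene and time pairs. The log2 fold change at ZT21 was 0.70 ± 0.29 (edgeR adjusted p = 1.00).

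Pik3r1, the regulatory subunit p85 alpha that holds and stabilises the PI3K catalytic subunit, was lower in CEK on average at all 8 times, as were 6.15% of all tested genes, but its average log2 fold change of -0.11 ± 0.045 did not pass (edgeR adjusted p = 0.0878). It passed without CEK at ZT3 replicate 3 (edgeR adjusted p = 0.0374) or without CON at ZT21 replicate 4 (edgeR adjusted p = 0.0467). CON hearts ran from 75.05 through 113 to 184 CPM and CEK hearts from 68.6 through 106 to 163 CPM. The wide range within each genotype followed the time of day.

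Akt1, a kinase of cell growth and survival, ran from 148 through 184 to 212 CPM over CON hearts and from 137 through 176 to 217 CPM over CEK hearts. Its average log2 fold change was -0.05 ± 0.032 (edgeR adjusted p = 0.374).

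Akt2, the kinase best known for insulin-stimulated glucose uptake, ran from 140.06 through 153 to 173 CPM over CON hearts and from 102 through 142 to 178 CPM over CEK hearts. Of the 32 CEK hearts 12 lay below the lowest CON heart, but the highest heart of all was also a CEK heart. The average log2 fold change was -0.12 ± 0.030 (edgeR adjusted p = 0.00493), with CEK lower at 8 of 8 times. At 0 of 8 times did the difference pass in edgeR (2 at an unadjusted p under 0.05, and 0 in DESeq2). The groups did not overlap at ZT9, where the CEK hearts had 129, 135, 141 and 149.97 CPM and the CON hearts 152, 153, 160.4 and 168 CPM. Each CEK heart at ZT9 was thus below each CON heart, with a log2 fold change of -0.19 ± 0.084 (edgeR adjusted p = 0.567). This was the only 1 of 8 times without overlap for Akt2, and 3.98% of all gene and time pairs had none. Among the 32 libraries with the lower submitter numbers the difference of Akt2 was -0.06 ± 0.039 and did not pass (edgeR adjusted p = 0.563). Among the 32 with the higher numbers it was -0.17 ± 0.042 (edgeR adjusted p = 0.0203). These fits used a single genotype term beside the times, with fewer hearts per group and in uneven numbers. The sets were not tested against each other. The median log2 fold change of the endothelial markers, at -0.10, was close in size to that of Akt2, and what part it had in the difference was not tested.

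Grb10, a brake on both receptors, ran from 57.96 through 74.2 to 97.0 CPM over CON hearts and from 63.3 through 77.97 to 95.02 CPM over CEK hearts. Its average log2 fold change was 0.04 ± 0.037 (edgeR adjusted p = 0.629), and the genotypes overlapped at every time.

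Grb14, the related brake that binds the insulin receptor and inhibits its kinase, ran from 147 through 182 to 221 CPM over CON hearts and from 122 through 145 to 172 CPM over CEK hearts. Of the 32 CEK hearts 18 were below the lowest CON heart, and 24 of the 32 CON hearts were above the highest CEK heart. The average log2 fold change was -0.33 ± 0.029 (edgeR adjusted p = 3.57e-13). Grb14 had the 23rd smallest p of all tested genes, and ranked 440th from the most negative log2 fold change. Its call held under all 12 alternatives and with each of the 64 libraries left out. With the macrophage score as a covariate the difference was -0.31 ± 0.039, and with the atrial score it was -0.34 ± 0.029.

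The 4 hearts of each group were listed for Grb14 at each time. At ZT0 CON hearts had 188, 189, 196 and 206 CPM and CEK hearts 134, 137, 143 and 158 CPM. At ZT3 CON hearts had 159, 174, 193 and 213 CPM and CEK hearts 137, 138, 151 and 161 CPM. The groups were far apart at ZT0 and overlapped at ZT3 through the lowest CON heart. At ZT6 CON hearts had 191, 197, 206 and 221 CPM and CEK hearts 153, 156, 162 and 172 CPM. At ZT9 CON hearts had 147, 187, 190.4 and 203 CPM and CEK hearts 148, 154, 157 and 165 CPM. At ZT9, 1 CON heart lay below all 4 CEK hearts, while the groups did not overlap at ZT6. At ZT12 CON hearts had 172, 176, 180.2 and 209 CPM and CEK hearts 135, 135, 146 and 154 CPM. At ZT15 CON hearts had 158, 172, 172 and 181 CPM and CEK hearts 141, 146, 149 and 157.5 CPM. Both of these times were without overlap, at ZT15 by a narrow margin. At ZT18 CON hearts had 157, 163, 172 and 194 CPM and CEK hearts 122, 126, 138 and 141 CPM. At ZT21 CON hearts had 169, 176, 179 and 184 CPM and CEK hearts 127, 139, 139.9 and 139.95 CPM. Again no CEK heart reached the lowest CON heart.

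Grb14 groups thus did not overlap at 6 of 8 times, and 0.341% of all tested genes had at least 6 such times. CEK was lower at each of the 8 times, from 73.3% of the CON mean at ZT0 to 86.9% at ZT15. Differences passed at 5 times, and over all genes and times 0.379% of pairs passed. Of all tested genes, 1.24% passed at ZT0, 0.7% at ZT3, 0.189% at ZT6, 0.341% at ZT9, 0.11% at ZT12, 0.11% at ZT15, 0.201% at ZT18 and 0.146% at ZT21. The log2 fold changes of Grb14 at the 5 called times were -0.45 ± 0.082 at ZT0 (edgeR adjusted p = 0.000943), -0.33 ± 0.082 at ZT3 (0.0340), -0.37 ± 0.082 at ZT12 (0.0327), -0.38 ± 0.082 at ZT18 (0.0221) and -0.38 ± 0.082 at ZT21 (0.0265). At ZT6 the difference was as large as at ZT3, -0.34 ± 0.082, and narrowly did not pass (edgeR adjusted p = 0.0536). It passed there in 5 of 64 fits with a library left out and in 3 of 11 alternatives. At ZT9 it was -0.22 ± 0.082 (edgeR adjusted p = 0.367) and at ZT15 -0.20 ± 0.082 (edgeR adjusted p = 0.979). The call at ZT0 held with each of the 64 libraries left out, while those at ZT3, ZT12, ZT18 and ZT21 ended in 5, 32, 5 and 8 of the 64 fits, and with the macrophage score as a covariate, or with the 8 libraries of a time alone, 0 of the 5 calls held. Without the 3 libraries that stood apart the difference at ZT18 was -0.28 (edgeR adjusted p = 0.589). Of the 80 pairs of a gene and a time, the 72 of the other 9 genes had 0 calls in edgeR, with 7 at an unadjusted p under 0.05 and 0 in DESeq2. The interaction of genotype and time called 0 of the 10 genes in edgeR, with 0 at an unadjusted p under 0.05, and 0 in DESeq2. Of all 16417 tested genes it called 1 in edgeR (0.00609%).

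**Figure D2:**
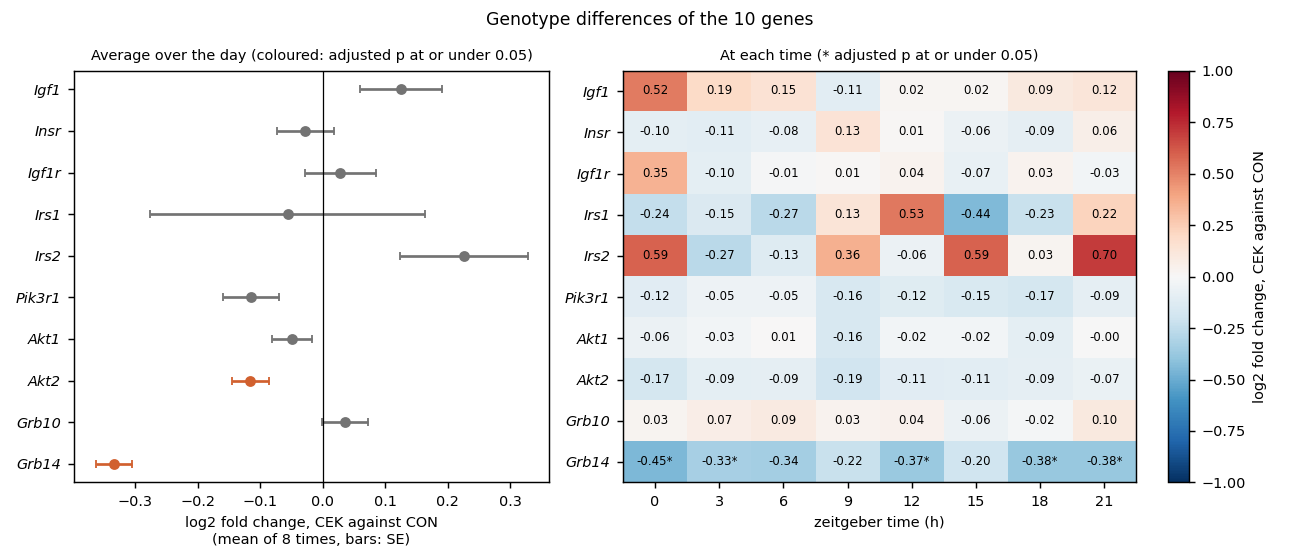
Log2 fold changes of CEK against CON for the 10 genes, as the average of 8 times with SE bars on the left and at each zeitgeber time on the right, where stars mark an edgeR adjusted p at or under 0.05. Stars appear in the Grb14 row alone, and Grb14 and Akt2 passed as averages.

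A cosine with a period of 24 h was fitted to each genotype, and its amplitude is the distance in log2 units from the mean to the peak. Pik3r1 had an amplitude of 0.39 ± 0.049 with a peak at ZT13.9 ± 0.49 h in CON hearts (edgeR adjusted p = 3.80e-08) and of 0.34 ± 0.049 with a peak at ZT13.8 ± 0.56 h in CEK hearts (edgeR adjusted p = 9.31e-07). At ZT12 CON hearts had 154, 168, 170.0 and 184 CPM and CEK hearts 133, 161, 162 and 163 CPM. At ZT6 CON hearts had 77.6, 88.4, 98.1 and 105 CPM and CEK hearts 69.2, 89.1, 97.5 and 101 CPM. In both genotypes every heart at ZT12 was above every heart at ZT6. These times were picked from the same values, as those with the highest and lowest means of Pik3r1. The share of all tested genes with such a gap was not counted. Both rhythm calls of Pik3r1 held in all 11 alternatives and all 64 fits with a library left out. Rhythms were called for 3 of the 10 genes in CON, beside 14.6% of all tested genes, and for 3 in CEK, beside 15.6%. With time taken as 8 separate levels Pik3r1 also passed in CON (edgeR adjusted p = 3.37e-07) and in CEK (edgeR adjusted p = 3.76e-06), beside 7.73% and 8.39% of all tested genes. Among all tested genes 3.17% had a called CON rhythm with an amplitude at or above that of Pik3r1. Irs1 had a larger amplitude in CON, 0.46 ± 0.21, with a wide error, and did not pass (edgeR adjusted p = 0.303). Akt1 in CON (0.098 ± 0.032, edgeR adjusted p = 0.0702) and Irs2 in CEK (0.31 ± 0.10, edgeR adjusted p = 0.0700) narrowly did not pass. They passed in 4 and 5 of 64 fits with a library left out, and in 3 and 1 of 11 alternatives.

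Igf1 was called rhythmic in CEK hearts, with an amplitude of 0.31 ± 0.069 and a peak at ZT0.34 ± 0.85 h (edgeR adjusted p = 0.00303). In CON hearts its amplitude was 0.11 ± 0.070 (edgeR adjusted p = 0.530), and the difference between the genotypes did not pass (edgeR adjusted p = 1). Means of Igf1 in CEK hearts were 19.3 CPM at ZT0 and 19.1 CPM at ZT3, and 12.1 CPM at ZT15. The macrophage score of CEK hearts was 4.33 ± 0.216 (SD) at ZT0, 4.52 ± 0.281 at ZT3, 3.92 ± 0.163 at ZT12 and 4.21 ± 0.178 at ZT15. The fibroblast score of CEK hearts was 6.21 ± 0.112 at ZT0 and 6.32 ± 0.370 at ZT3, and lowest at ZT15 with 5.92 ± 0.0760, and its part in the Igf1 rhythm was not tested. With the macrophage score as a covariate the amplitude was 0.21 and did not pass (edgeR adjusted p = 0.0784).

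Grb14 passed in both genotypes with small amplitudes of 0.10 ± 0.029 in CON (peak at ZT4.66 ± 1.14 h, edgeR adjusted p = 0.0440) and 0.11 ± 0.029 in CEK (peak at ZT7.33 ± 1.01 h, edgeR adjusted p = 0.0155). The CON call ended in 35 of 64 fits that left out 1 library, with an adjusted p of up to 0.121 without CON at ZT6 replicate 3, and in 8 of 11 alternatives. The CEK call held in all 64 such fits and ended in 2 of 11 alternatives, without a filter on low counts and with time as 8 levels. Grb10 passed in CON, with an amplitude of 0.13 ± 0.037 and a peak at ZT18.0 ± 1.09 h (edgeR adjusted p = 0.0340). That call ended without any 1 of 12 CON hearts, with an adjusted p of up to 0.0791 without CON at ZT18 replicate 2, and in the same 2 of 11 alternatives. In CEK hearts Grb10 had an amplitude of 0.09 ± 0.037 (edgeR adjusted p = 0.173). A difference in rhythm between genotypes was called for 0 of the 10 genes in edgeR, with 0 at an unadjusted p under 0.05, and for 0 in DESeq2. Of all 16417 tested genes 1 was called in edgeR (0.00609%).

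**Figure D3:**
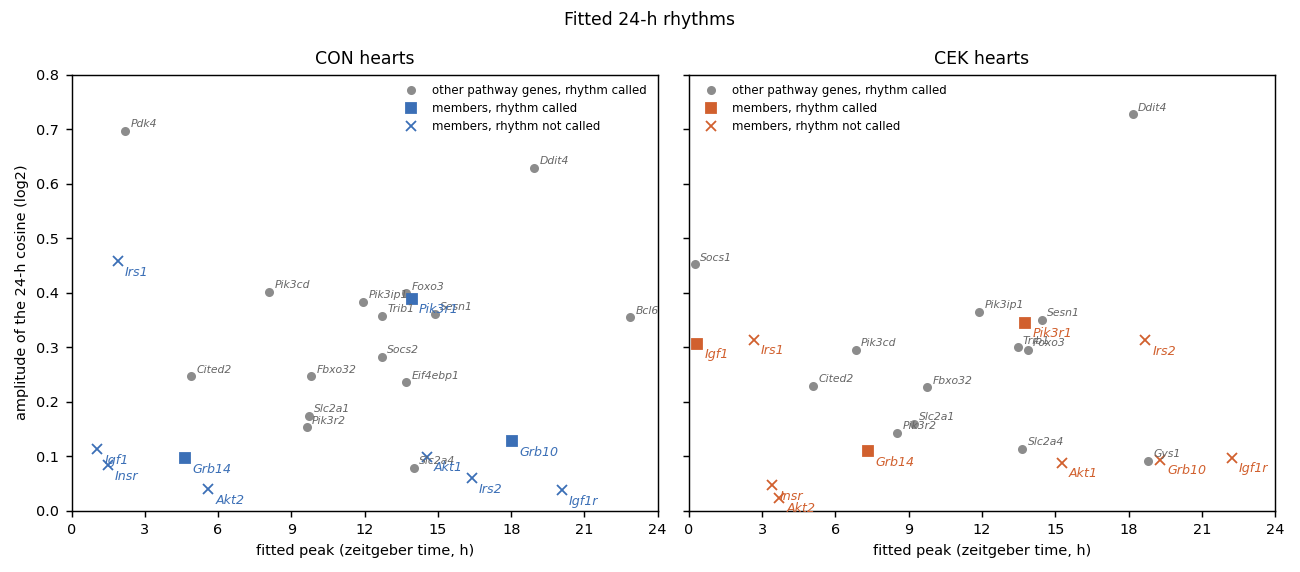
Amplitude (log2) against fitted peak (zeitgeber time in hours) of the 24-h cosine, CON left and CEK right, for the 10 genes (squares called, crosses not called) and for called genes of other pathway lists (grey points). Pik3r1 sits near ZT14 in both panels, and Igf1 is called in CEK hearts alone, although the difference between genotypes did not pass.

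Lists of other genes of the pathway held 85 genes, of which 84 were tested, and 10 of these passed the average genotype test, which is 11.9%, beside 12% of all tested genes. Their median log2 fold change was -0.05. The 3 higher genes were Socs3, a feedback inhibitor of cytokine and insulin signalling (0.45 ± 0.081, edgeR adjusted p = 3.96e-05), Pik3cd, the PI3K catalytic subunit delta of leukocytes (0.20 ± 0.048), and the pseudokinase Trib1 (0.12 ± 0.041). The 7 lower genes were the ligand Igf2 (-0.26 ± 0.089), the Akt phosphatase Phlpp1 (-0.20 ± 0.068), the Akt substrate Foxo4 (-0.16 ± 0.045), the Rab regulator Tbc1d1 (-0.37 ± 0.13), the glucose transporter Slc2a4 (-0.11 ± 0.024), glycogen synthase Gys1 (-0.10 ± 0.025) and the muscle ubiquitin ligase Trim63 (-0.17 ± 0.038). With a single library left out the calls of Igf2, Phlpp1, Tbc1d1 and Trib1 ended in 24, 32, 23 and 36 of 64 fits, and those of the other 6 held. With the macrophage score as a covariate, which itself differed between genotypes, 9 of these 10 calls ended. With the atrial score 4 ended, and what part these scores had in the calls was not tested further. Without a filter on low counts 5 of the 10 calls ended, and among the 32 libraries with the lower and the 32 with the higher submitter numbers 9 ended in each.

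By list, 1 of 10 ligands, binding proteins and clearance genes passed, 1 of 15 receptor adaptors and brakes, 3 of 15 genes of the PI3K and Akt module, 0 of 16 of the mTOR module in edgeR (5 at an unadjusted p under 0.05, 2 in DESeq2), 4 of 14 Akt substrates and metabolic genes, and 1 of 14 FoxO targets.

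**Figure D4:**
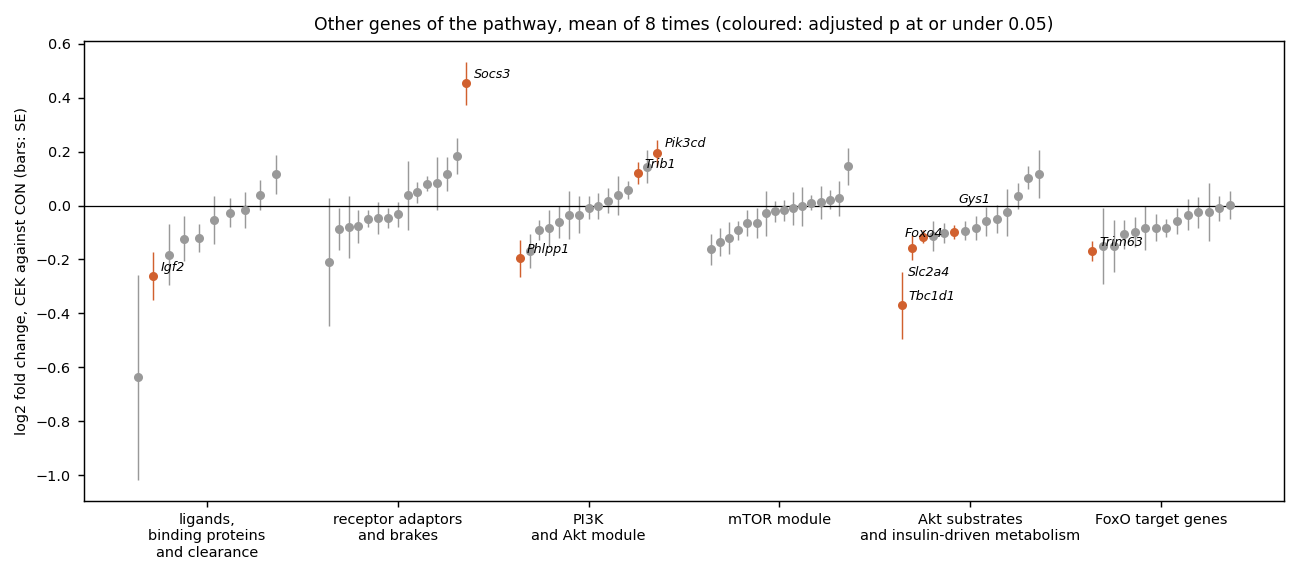
Log2 fold change of CEK against CON, mean of 8 times with SE bars, for the 84 tested genes of 6 pathway lists, with named coloured points for an edgeR adjusted p at or under 0.05. The 10 coloured points lie on both sides of 0, Socs3 highest at 0.45 and Tbc1d1 lowest at -0.37.

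Of the 84 genes 15 were rhythmic in CON and 13 in CEK hearts, 11 of them in both. The shares in CON and CEK were close to those of all tested genes, 14.6% and 15.6%. Peaks of those 11 lay within 1.28 h of each other between genotypes. With a single library left out the CON calls of Slc2a4, Bcl6, Slc2a1 and Eif4ebp1 ended in 32, 7, 7 and 5 of 64 fits and the CEK calls of Slc2a1 and Socs1 in 43 and 7, and the other calls held. In the list of ligands, binding proteins and clearance genes 0 were rhythmic in either genotype. Among genes with a called CON rhythm, those with the 2 largest amplitudes in each other list were Socs2, a growth hormone and cytokine feedback gene and the only 1 called in its list (0.28 ± 0.066), Pik3cd (0.40 ± 0.048) and the PI3K inhibitor Pik3ip1 (0.38 ± 0.045), the mTOR inhibitors Ddit4 (0.63 ± 0.13) and Sesn1 (0.36 ± 0.039), the transcription factor Foxo3 (0.40 ± 0.048) and the glucose transporter Slc2a1 (0.17 ± 0.048), and the FoxO targets Pdk4, a brake on pyruvate oxidation (0.70 ± 0.16), and Bcl6, a repressor (0.35 ± 0.10). Socs1 (0.32 ± 0.13) and Tbc1d1 (0.33 ± 0.12) had larger CON amplitudes than Socs2 and Slc2a1 of the same lists but did not pass. Foxo3, at ZT13.7, and Sesn1, at ZT14.9, peaked in CON within 1 h of Pik3r1.

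Over the 16 group means, the genes most like each of the 10 by Pearson correlation of log2 CPM were found among 11164 named protein-coding genes. These correlations are descriptions over means that share libraries. Those most like Grb14 were Capn3 (0.93), Ctla4 (0.93) and Exoc2 (0.92), and those most like Akt2 were Abca4 (0.92), Slc40a1 (0.91) and Zfand3 (0.89). Those most like Pik3r1 were Chd6 (0.98), Fam107a (0.97) and Noct (0.97), and those most like Akt1 were Mapkapk3 (0.92), Eya2 (0.89) and Aqp1 (0.88). Those most like Insr were Tmem168, Alg2 and Pdk4 (each 0.86), those most like Igf1r Rbms3 (0.89), Ccdc191 (0.87) and Baz2b (0.86), and those most like Igf1 Saysd1 (0.90), Mocos (0.88) and Adamtsl2 (0.86). Those most like Irs1 were Med23 (0.94), Tmed7 (0.91) and Copb1 (0.90), those most like Irs2 Plcd3 (0.81), Pkp4 (0.80) and Iqcb1 (0.78), and those most like Grb10 Nus1, Pacs2 and Homer1 (each 0.87).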

How the data were processed

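The authors deposited raw counts of reads per gene for 64 libraries of total RNA, built with a SMARTer mRNA kit per the labels' protocols. Per the submitters' processing notes, reads passed through bcl2fastq 2.18.0.12, STAR 2.6.1d and HTSeq 0.11.1 on GRCm38. The sources used here do not give the annotation release or the strand setting. Of 48795 gene IDs, 48435 matched GENCODE M21 without version. The 5 summary rows stayed out. A median of 3.56% of reads fell in no feature and 3.20% were ambiguous. CEK at ZT12 replicate 1 had the highest shares, 12.6% and 12.5%. It was also the highest CEK heart for Irs1 and Pik3r1.

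Fits used R 4.3.3 and edgeR 4.0.16 (quasi-likelihood, TMM, filterByExpr with minimum count 10). The average and single-time genotype differences and the interaction came from 16 group means, the rhythms from cosine and sine terms of 24 h per genotype. Benjamini-Hochberg adjustment ran over all 16417 genes at a threshold of 0.05. CPM used TMM-scaled libraries; log2 CPM used a prior count of 2. Tests were checked on simulated data. Alternatives were DESeq2 1.42.0, other scaling, filters and covariates, subsets and each library left out. All 10 genes are named; pathway genes are named where they passed the average test or had the 2 largest called CON amplitudes of a list. Members and lists were chosen with earlier results of these data known. Replicates are biological per the labels, and each test sets a difference against the spread between these hearts, estimated over all groups.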

Additional observations from a re-analysis of the deposited data

Results flagged for a closer look

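Of 160 groups of 4 hearts, 8 held a heart whose distance from the nearest other was, as a share of the group's range, over Dixon's 95% critical value, about the 1 in 20 that chance gives. CON at ZT21 replicate 1 was the highest for Insr (154.6 CPM, the others 113 to 116), Irs1 (13.4 CPM, the others 2.47 to 2.98) and Grb10 (97.0 CPM, the others 70.4 to 72.5). CEK at ZT0 replicate 4, a library that stood apart, was the highest for Igf1r (56.0 CPM, the others 25.8 to 30.1). CEK at ZT18 replicate 1, which also stood apart, was the lowest for Insr (107 CPM, the others 121 to 122). CEK at ZT21 replicate 4 was the lowest for Grb14 (127 CPM, the others 139 to 139.95). CEK at ZT6 replicate 2 was the highest for Akt2 (149 CPM, the others 141 to 142). CEK at ZT12 replicate 3 was the lowest for Pik3r1 (133 CPM, the others 161 to 163).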

How the results depend on the processing

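The average difference of Grb14 kept its call in all 12 alternatives and all 64 fits that left out 1 library, and Akt2 lost its call in 1 alternative. With each library left out, 1819 to 2124 genes and 2 to 3 of the 10 passed the average test (1968 and 2 with all). With the macrophage score as a covariate 653 genes passed, and in the libraries with lower and higher submitter numbers 732 and 720, each from 32 libraries, with 1 of the 10 in the lower ones. Of gene and time pairs 313 passed without a filter on low counts, 167 with the macrophage score, 78 in fits of the 8 libraries of a time and 762 in DESeq2 (498 in the main analysis, 336 to 683 with a library left out). Of the 10 genes' pairs 1, 0 and 0 passed in the first 3 of these (5, and 3 to 6 with a library left out; 3 without any 1 of 10 hearts at ZT3, ZT18 and ZT21). With time as 8 separate levels 1269 genes passed in CON and 1378 in CEK (2393 and 2560; 2057 to 2722 and 2262 to 2872 with a library left out). Of the 10, 1 passed in CON with 8 levels, and 1 without a filter (1 to 4 with a library left out, 1 without any 1 of 9 CON hearts; 3 with all). In CEK 2 passed with 8 levels, without a filter or with the macrophage score (3, and 3 to 4 with a library left out). The rhythm difference called 10 genes without a filter and 0 with the stricter one (1 to 2 with a library left out), and the interaction 0 with the stricter one (1 to 2). The stricter filter needs 1 CPM in every group mean, which Nfil3 in CEK lacks.

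Signs that reversed, none of them called, were Igf1 (-0.042), Insr (0.062) and Irs1 (0.37) with the macrophage score and Igf1r without the 3 libraries that stood apart (-0.028). With a library left out Igf1r ran from -0.012 to 0.045, below 0 without CEK at ZT0 replicate 4 or CEK at ZT18 replicate 1, and Irs1 from -0.12 to 0.074, above 0 without replicate 4 of CON at ZT6, 1 at ZT15, 2 at ZT18 or 1 at ZT21. The cause was not tested. Irs2 passed the average test without CON at ZT6 replicate 2 (edgeR adjusted p = 0.0446).

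Whether the replicate numbers pair the hearts could not be settled. Of 32 CEK and CON pairs of the same number and time, 20 had deviations correlated above 0.1 (median 0.152, from -0.431 to 0.522). Pairs of other numbers at the same time were not computed, so these values have no reference at 1 time. Over all pairs of hearts from different groups the mean correlation was 0.0188 for the same number and -0.0047 for other numbers. With the replicate number as a block Grb14 was -0.33 ± 0.030 and Akt2 -0.12 ± 0.030, and the CON rhythm call of Grb14 ended (edgeR adjusted p = 0.05001). Depth limits Irs1 most, with as few as 5 reads in a library.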
